A study of Mus musculus with 2 samples.

Results

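The Mir15 and Mir16 family was examined in smRNA-seq libraries of mESCs and of prospermatogonia, which are male fetal germ cells, at E15.5. Its members were chosen by name, as the loci Mir15a, Mir15b, Mir16-1, Mir16-2, Mir195, Mir497, Mir322 and Mir503. All 8 loci were listed among the 1638 miRNA features of the table. The mESCs were wild-type cells of the E14 line. The methods describe naive cells of this line as grown without feeders in N2B27 medium with LIF and inhibitors of MEK and GSK3, but do not name the medium of the cells of this library. The germ cells carry the label primordial germ cell, came from male embryos at E15.5 and are of C57Bl/6J background. Their genotype is given as wild-type, and the methods describe embryos of females carrying an Oct-4/GFP transgene. The number of embryos pooled is not given in the sources used here. With a single library for each cell type (n = 1), differences between them have no replicate error to be set against. Cell type, strain, and growth in culture or in the embryo differ together and cannot be told apart.

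miRNAs are short RNAs cut from hairpin precursors, and bases 2 to 8 of the mature strand, the seed, are the main guide to the mRNAs they repress. The Mir15 and Mir16 family is known for restraining the passage from G1 to S phase, since mRNAs of D-type and E-type cyclins and other cell-cycle regulators are among its targets. mESCs have a short G1 phase and divide rapidly, whereas male germ cells of the fetal testis leave the cell cycle and stay arrested until after birth. The comparison of the libraries therefore asks which loci of the family are present in dividing mESCs and which in germ cells around this arrest.

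The family lies in 4 genomic clusters, each a pair of hairpins that share a primary transcript. Positions are on GRCm38. Mir15a (chr14:61632027-61632110) and Mir16-1 (chr14:61631880-61631972) lie on the minus strand within Dleu2, a long noncoding RNA gene, Mir15a in an intron and Mir16-1 overlapping an annotated exon. Mir15b (chr3:69009756-69009853) and Mir16-2 (chr3:69009902-69009996) lie on the plus strand in an intron of Smc4, which encodes a condensin subunit. Mir497 (chr11:70234717-70234800) and Mir195 (chr11:70235042-70235135), named Mir195a in GENCODE, lie on the plus strand in no other gene annotated in GENCODE vM21. Mir322 (chrX:53054255-53054349) and Mir503 (chrX:53053984-53054054) lie on the minus strand of the X chromosome, likewise in no other annotated gene. The gap between the hairpins of a pair is 48 to 241 nt. No other listed feature overlaps a member on either strand.

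The mature 5p strands show what the family shares and where its members part. They are taken from RefSeq (GRCm38.p6), which held a mature sequence for 8 of 8 loci, and capitals mark the seed.
miR-15a-5p: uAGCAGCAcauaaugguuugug
miR-15b-5p: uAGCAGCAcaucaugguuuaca
miR-16-5p: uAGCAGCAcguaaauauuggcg
miR-195a-5p: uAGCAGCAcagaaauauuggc
miR-497a-5p: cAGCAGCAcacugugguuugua
miR-322-5p: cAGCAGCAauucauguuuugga
miR-503-5p: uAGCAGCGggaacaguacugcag
The seed AGCAGCA is common to 7 of the 8 loci, and Mir503 alone has AGCAGCG. Among 1738 mature entries of the RefSeq table, 11 (0.633%) carry the seed AGCAGCA. Those outside the family as defined here are Mir195b, Mir6342, Mir6353 and Mir6419, which were not analysed here. Beyond the seed the strands part, and miR-15a-5p and miR-15b-5p differ at 4 of 22 bases. miR-322-5p differs from miR-15b-5p at 6 of 22 bases and from miR-16-5p at 10 of 22. Apart from the copies of miR-16-5p, the longest stretch that any pair of these 5p strands shares is 11 bases.

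Mir16-1 and Mir16-2 yield the same mature 5p strand from different hairpins, which are shown because this limits what their values mean. Capitals mark the shared miR-16-5p within each hairpin.
Mir16-1: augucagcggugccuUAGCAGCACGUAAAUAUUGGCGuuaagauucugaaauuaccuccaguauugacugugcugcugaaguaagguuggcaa
Mir16-2: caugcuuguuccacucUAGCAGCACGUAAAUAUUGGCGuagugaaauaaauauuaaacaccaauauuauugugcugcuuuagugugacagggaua
The longest stretch the hairpins share is 23 bases, so that a read of miR-16-5p matches both loci. Their 3p strands differ, with capitals again on the seed.
miR-16-1-3p: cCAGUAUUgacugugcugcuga
miR-16-2-3p: aCCAAUAUuauugugcugcuuu

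The authors deposited a log2 value per library and feature. All values above the entry for no read could be turned back into whole reads, the largest deviation being 0.0165 reads, and that entry, which equals 0.9 reads, is taken as 0 here. Read as log2 RPM, that is as reads scaled to the library total, the values imply 449643 reads for the mESC library and 2869578 for the prospermatogonia library. Of these, 110455 and 155237 reads lay on listed miRNA features, 24.6% and 5.41% of the totals. A count of 0 reads allows a level of up to 3 reads, which equals 6.67 RPM for mESCs and 1.05 RPM for prospermatogonia, while the Wilson bars drawn in the plots reach 8.54 and 1.34 RPM at 0 reads. Because miRNAs as a class hold a 4.54-fold larger share of the mESC library, each level is given both as RPM and as a share of the miRNA reads, and the second does not depend on reading the values as RPM. Intervals in brackets are 95% intervals for counting error only, Wilson unless another method is named, since PCR duplicates are not independent molecules and there is no second library. Fewer cells of a type and less RNA per cell cannot be told apart in such bulk libraries. Of the 12 mESC-associated miRNA features checked, 12 had more than 3 reads in mESCs and 6 in prospermatogonia. They held 27275 reads in all in mESCs and 5052 in prospermatogonia, 24.7% and 3.25% of the miRNA reads. Of 10 features chosen by name from the X-linked male germ cell cluster, 2 and 10 had more than 3 reads, with 14 reads in all in mESCs and 16837 in prospermatogonia. Other features of this stretch are not in the list, among them Mir471 with 0 and 38 reads and Mir742 with 0 and 1. The count is therefore not one over the whole cluster.

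The 8 loci together held 262 reads in mESCs and 331 in prospermatogonia. As a level this was 583 RPM in mESCs and 115 RPM in prospermatogonia, a 5.05-fold difference (4.30 to 5.94). As a share of the miRNA reads the family was 0.237% in mESCs (0.210% to 0.268%) and 0.213% in prospermatogonia (0.191% to 0.237%). The family's part of the miRNA pool could thus not be told apart between the libraries at this depth, with a ratio of prospermatogonia to mESC of 0.899 (0.765 to 1.06), whereas its RPM was lower in prospermatogonia along with that of most miRNAs. Within the family the loci did not move together. By the reads listed, Mir15b was the leading locus of mESCs and Mir322 that of prospermatogonia, with the limit that the entries of Mir16-1 and Mir16-2 are not read here as the level of miR-16-5p.

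**Figure D1:**
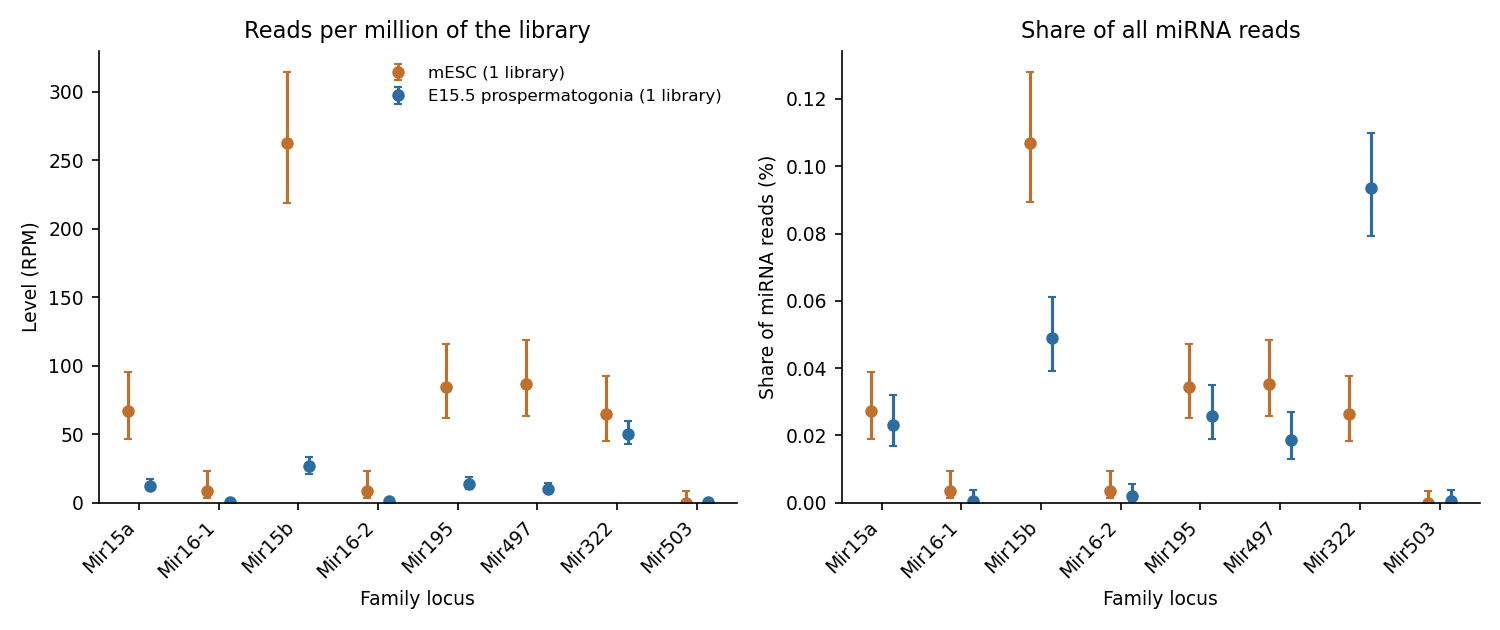
Level of each family locus in RPM (left) and as a share of all miRNA reads in percent (right) in the mESC library and the E15.5 prospermatogonia library, with 95% Wilson intervals for counting error. Mir15b is highest in mESCs at 262 RPM, and Mir322 is the highest in prospermatogonia at 50.5 RPM, where it also exceeds its own mESC share on the right.

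Mir15b had 118 reads in mESCs, 262 RPM (219 to 314), and 76 reads in prospermatogonia, 26.5 RPM (21.2 to 33.1). Its RPM was 9.91-fold higher in mESCs (7.43 to 13.2), the largest difference among the members with 10 RPM or more in either library, although its interval overlaps those of Mir497, Mir195 and Mir15a. Its share of the miRNA reads was 0.107% in mESCs and 0.0490% in prospermatogonia, so that it was also lower within the miRNA pool of prospermatogonia, at 0.458 of its mESC share (0.344 to 0.611). It ranked 66 among all listed features in mESCs and 86 in prospermatogonia. The hairpin of Mir15b is shown with miR-15b-5p in capitals, as RefSeq gives it. The feature in the table extends beyond it on both sides.
Mir15b: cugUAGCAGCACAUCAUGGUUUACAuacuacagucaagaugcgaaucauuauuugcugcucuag

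Mir322, the mouse counterpart of human miR-424, had 29 reads in mESCs, 64.5 RPM (44.9 to 92.6), and 145 reads in prospermatogonia, 50.5 RPM (42.9 to 59.5). These RPM intervals overlap, and the mESC level was 1.28-fold that of prospermatogonia (0.859 to 1.90). As a share of the miRNA reads Mir322 was 0.0263% in mESCs (0.0183% to 0.0377%) and 0.0934% in prospermatogonia (0.0794% to 0.110%), 3.56-fold higher in prospermatogonia (2.39 to 5.29). It ranked 121 in mESCs and 65 in prospermatogonia. It was the one member of the family whose share of the miRNA pool was higher in prospermatogonia with an interval that leaves out equality. The hairpin is shown with miR-322-5p in capitals.
Mir322: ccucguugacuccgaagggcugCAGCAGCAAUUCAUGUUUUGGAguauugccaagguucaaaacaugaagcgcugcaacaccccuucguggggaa

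Mir195 and Mir497, which are neighbours on chromosome 11, were at levels like each other within each library, and both were lower by RPM in prospermatogonia. Mir195 had 38 reads in mESCs (84.5 RPM) and 40 in prospermatogonia (13.9 RPM), 6.06-fold higher in mESCs by RPM (3.90 to 9.42). Mir497 had 39 reads in mESCs (86.7 RPM) and 29 in prospermatogonia (10.1 RPM), 8.58-fold higher in mESCs (5.33 to 13.8). Within the miRNA pool the share of Mir195 in prospermatogonia was 0.749 of that in mESCs, with an interval that includes equality (0.482 to 1.16), and that of Mir497 was 0.529 (0.329 to 0.852). The ratio of Mir195 to Mir497 reads was 0.974 in mESCs and 1.38 in prospermatogonia, a change of 1.42-fold that lies within the counting error (0.736 to 2.72, Woolf interval). 

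Mir15a, the partner of Mir16-1 in Dleu2, had 30 reads in mESCs (66.7 RPM) and 36 in prospermatogonia (12.5 RPM). Its RPM was 5.32-fold higher in mESCs (3.29 to 8.59). Its share of the miRNA reads was 0.0272% in mESCs and 0.0232% in prospermatogonia, and the ratio of 0.854 could not be told from equality at this depth (0.528 to 1.38). The paralogs Mir15a and Mir15b were nearer to each other in prospermatogonia, where Mir15a had 0.474 reads per Mir15b read, than in mESCs, where it had 0.254. This change of 1.86-fold had a Woolf interval of 1.06 to 3.27, close to equality at its lower end.

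Mir16-1 and Mir16-2 were listed with 4 reads each in mESCs, and with 1 and 3 reads in prospermatogonia. miR-16-5p is the mature strand common to both loci. How reads that match several loci were counted for the deposited values is not given in the sources used here. The methods name uniquely mapped smRNAs for the length distribution and the 5′-end composition. Of the listed features with a RefSeq mature strand, 28 have every mature strand also at another locus, and none of these exceeded 3 reads in either library. Of the 80 with at least 1 such strand, which include both Mir16 loci, 13.8% exceeded 3 reads in mESCs and 22.5% in prospermatogonia. The highest of these 80 was Mir92-1, with 5244 reads in mESCs and 29587 in prospermatogonia. Of the 482 features with no mature strand elsewhere, 34.4% exceeded 3 reads in mESCs and 36.9% in prospermatogonia. What part of the miR-16-5p reads the entries of Mir16-1 and Mir16-2 hold was not tested, so that they are not read here as the level of miR-16-5p, and the sums over the family hold only the reads listed. In prospermatogonia neither entry exceeded 3 reads, the level that a count of 0 allows, so that no exact fold is given. From the reads listed, the RPM of mESCs over prospermatogonia had intervals of 3.84 to 170 for Mir16-1 and 2.13 to 34.0 for Mir16-2. As shares of the miRNA reads, the ratios of prospermatogonia to mESC had intervals that include equality, 0.0267 to 1.18 for Mir16-1 and 0.134 to 2.13 for Mir16-2. Mir503, the member with the deviating seed, had 0 reads in mESCs and 1 in prospermatogonia, which allows no fold. No mature strand of Mir503 lies at another locus.

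In mESCs the order by reads was Mir15b, Mir497, Mir195, Mir15a and Mir322, and all but Mir15b had overlapping intervals. In prospermatogonia the order was Mir322, Mir15b, Mir195, Mir15a and Mir497. There the intervals of Mir322 and Mir15b stood apart from each other, and those of Mir195, Mir15a and Mir497 overlapped. A smRNA read covers a whole mature strand, so that reads were not divided by length. Per 100 nt of feature the mESC order was the same, and in prospermatogonia Mir15a (42.9 reads) and Mir195 (42.6 reads) changed places.

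The make-up of the family can be compared without any scaling between the libraries, since it uses only the reads listed for the family itself. The entries of the Mir16 loci are not read here as the level of the strand they share. The shares and ratios that follow are therefore those of the listed reads only, and reads of that strand missing from the entries could change them. In mESCs the Mir15b/Mir16-2 cluster held 46.6% of the family reads (40.6% to 52.6%), the Mir195/Mir497 cluster 29.4% (24.2% to 35.2%), the Mir15a/Mir16-1 cluster 12.98% (9.44% to 17.6%) and the Mir322/Mir503 cluster 11.1% (7.82% to 15.4%). In prospermatogonia the Mir322/Mir503 cluster held 44.1% (38.9% to 49.5%), the Mir15b/Mir16-2 cluster 23.9% (19.6% to 28.7%), the Mir195/Mir497 cluster 20.8% (16.8% to 25.5%) and the Mir15a/Mir16-1 cluster 11.2% (8.22% to 15.0%). The X-linked cluster thus had the highest share in prospermatogonia, whereas its share in mESCs could not be told from that of the Dleu2 cluster. Its intervals did not overlap between the libraries, and those of the Mir195/Mir497 cluster and of the Dleu2 cluster did. The intervals of the Smc4 cluster did not overlap either, but shares of a common total are tied, and a larger part for Mir322 lowers all others. Set against the other members without Mir322, Mir15b had 1.03 reads per read of these in mESCs and 0.691 in prospermatogonia, a change of 0.673-fold whose Woolf interval, 0.456 to 0.994, comes close to equality. The Mir195/Mir497 cluster against the Mir15b/Mir16-2 cluster changed 1.38-fold, with an interval that includes equality (0.899 to 2.13). Mir322 had 0.124 reads per read of the other members in mESCs and 0.780 in prospermatogonia, a 6.26-fold change (4.02 to 9.75, Woolf interval). The other 7 loci without Mir322 made up 0.211% of miRNA reads for mESCs (0.186% to 0.240%) against 0.120% for prospermatogonia (0.104% to 0.138%), a ratio of 0.568 (0.469 to 0.689).

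**Figure D2:**
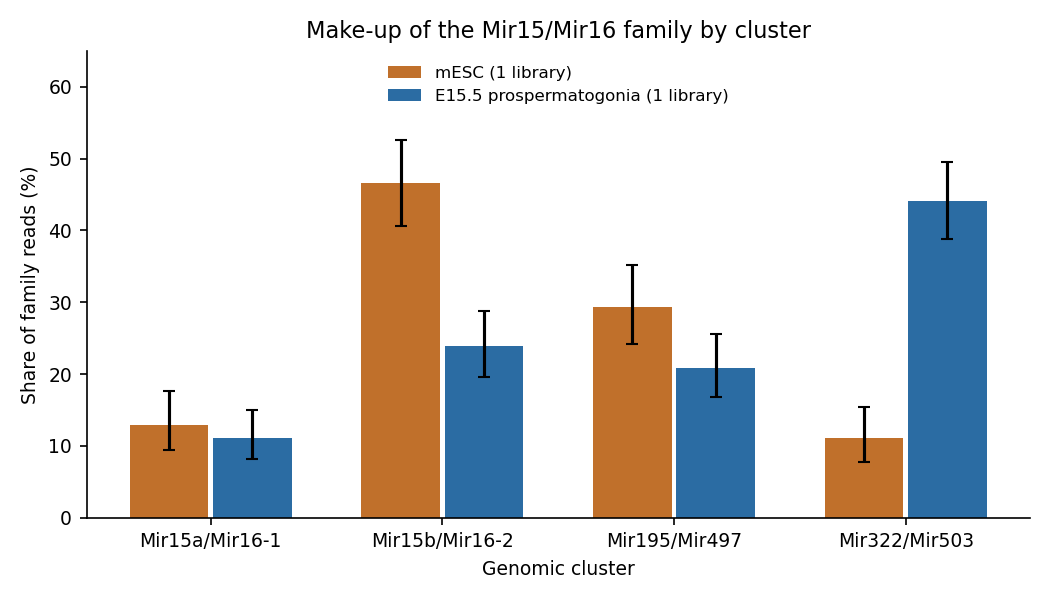
Share of the family's reads, in percent, that lay on each of the 4 genomic clusters in the mESC library (262 reads) and the E15.5 prospermatogonia library (331 reads); error bars are 95% Wilson intervals for counting error. The Mir322/Mir503 bar is 11.1% in mESCs and 44.1% in prospermatogonia, and the Mir15b/Mir16-2 bar is 46.6% and 23.9%. The bars of a library sum to all reads listed for the family, so that a higher bar of one cluster lowers the others. Reads of the strand shared by the Mir16 loci may be missing from these listed reads.

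The members were set against all listed features by the log2 ratio of prospermatogonia to mESC, computed from RPM with a pseudocount of 1, so that changes at low levels are understated. A level of at least 10 RPM in either library was reached by 203 features, among them 5 of the 8 members. With 2.22 RPM per read in mESCs and 0.348 RPM in prospermatogonia, this level takes fewer reads in mESCs. Mir574 reached it with 5 reads in mESCs and 0 in prospermatogonia, and Mir760 did not with 0 and 20. The same features were kept for the scaling to miRNA reads below. The shares and medians over all features thus lean towards features higher in mESCs. Mir16-1, Mir16-2 and Mir503 stayed below 10 RPM in both libraries. Of the 5 members, 4 were at least 2-fold lower in prospermatogonia (Mir15b, Mir497, Mir195 and Mir15a) and 0 were at least 2-fold higher, against 80.8% of all features lower and 9.85% higher. The log2 ratios were -3.26 for Mir15b, -2.98 for Mir497, -2.52 for Mir195, -2.32 for Mir15a and -0.35 for Mir322. Their median, -2.52, was equal to that of all 203 features, -2.52, to the decimals given. The share of all features with a lower ratio was 31.5% for Mir15b and 84.7% for Mir322, so that the family spans much of the middle of the distribution. When the libraries were scaled to their miRNA reads, every log2 ratio shifted up by 2.18 before the pseudocount. Of the 5 members 1 was then lower (Mir15b, -1.12) and 1 higher (Mir322, 1.81), against 39.9% and 20.2% of all features, and the medians were -0.41 for the members and -0.46 for all.

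**Figure D3:**
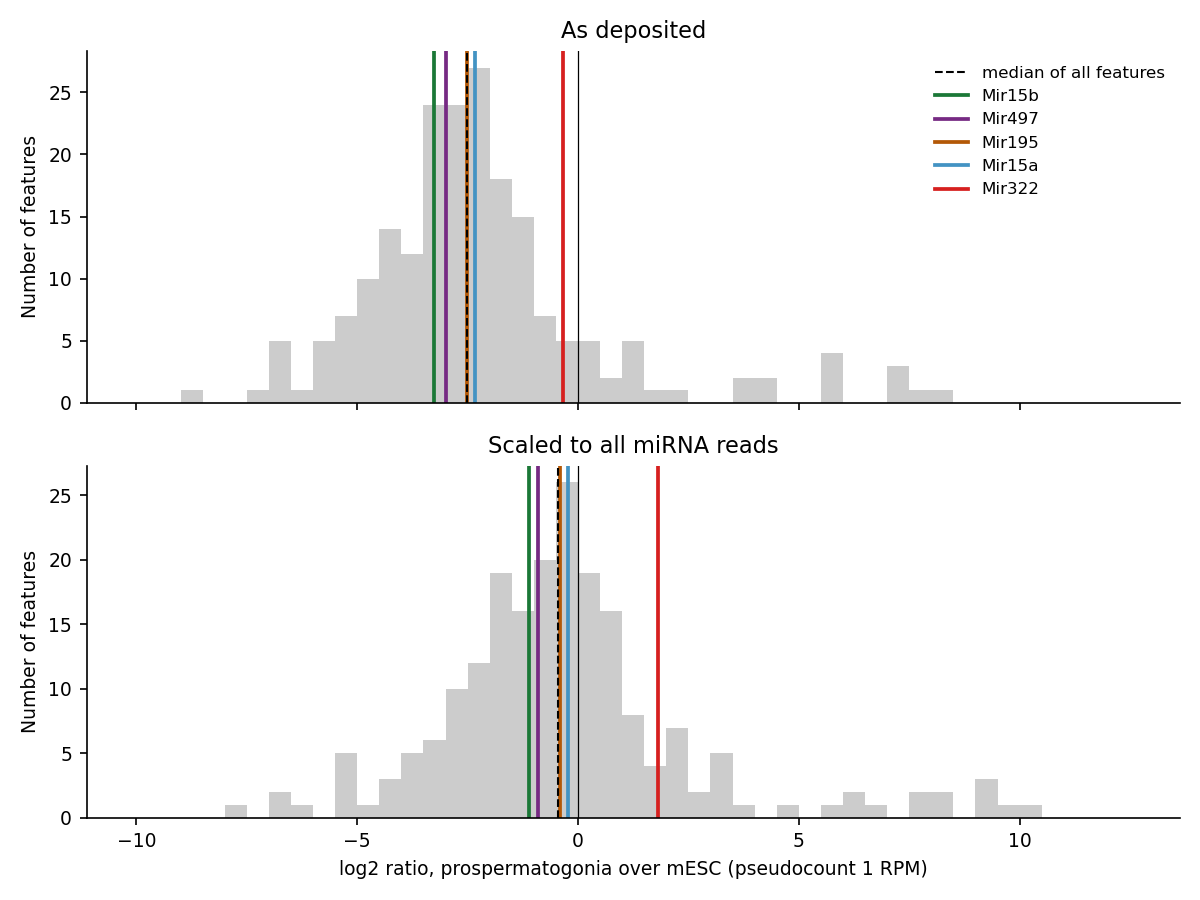
Histograms of the log2 ratio of prospermatogonia to mESC for the 203 features that reach 10 RPM in either library, as deposited (top) and scaled to all miRNA reads (bottom); coloured lines are the 5 family members above this level and the dashed line is the median of all features. In both panels Mir15b lies lowest of the 5 and Mir322 highest, at -0.35 as deposited and 1.81 after scaling.

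Mir322 and Mir503 head a longer X-linked cluster on the same strand, whose other hairpins carry other seeds. Mir351 starts 996 nt downstream of the 5′ end of Mir322 and Mir450b 6271 nt downstream, with Mir542 and the copies Mir450-1 and Mir450-2 between them. The mature 5p strands of Mir351 and Mir450b are shown with the seed in capitals, that of Mir351 being shared by Mir125a, Mir125b-1 and Mir125b-2 among others.
miR-351-5p: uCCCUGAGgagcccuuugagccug
miR-450b-5p: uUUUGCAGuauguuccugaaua
Mir351 had 82 reads in mESCs (182 RPM) and 476 in prospermatogonia (166 RPM). Its share of the miRNA reads was 4.13-fold higher in prospermatogonia (3.27 to 5.22), near the 3.56-fold of Mir322. The ratio of Mir351 to Mir322 reads was 2.83 in mESCs and 3.28 in prospermatogonia, a 1.16-fold change within the counting error (0.731 to 1.84, Woolf interval).

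The distal hairpins of the same cluster had another pattern. Mir450b had 73 reads in mESCs (162 RPM) and 56 in prospermatogonia (19.5 RPM), and its share of the miRNA reads in prospermatogonia was 0.546 of that in mESCs (0.386 to 0.772). Mir542 had 11 and 10 reads, and the ratio of its shares, 0.647, could not be told from equality (0.281 to 1.49). Mir322 had 0.397 reads per Mir450b read in mESCs and 2.59 in prospermatogonia, a 6.52-fold change (3.84 to 11.1, Woolf interval). Against Mir542 the change was 5.50-fold (2.14 to 14.1). Mir450-1 and Mir450-2, which yield the same miR-450a-5p, were listed with 0 reads in both libraries. The level of this strand is therefore uncertain, as for miR-16-5p. Mir322 and Mir351 near the 5′ end thus kept a like ratio to each other, whereas Mir322 and the distal Mir450b did not. Mir503, which lies between Mir322 and Mir351, had at most 1 read.

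**Figure D4:**
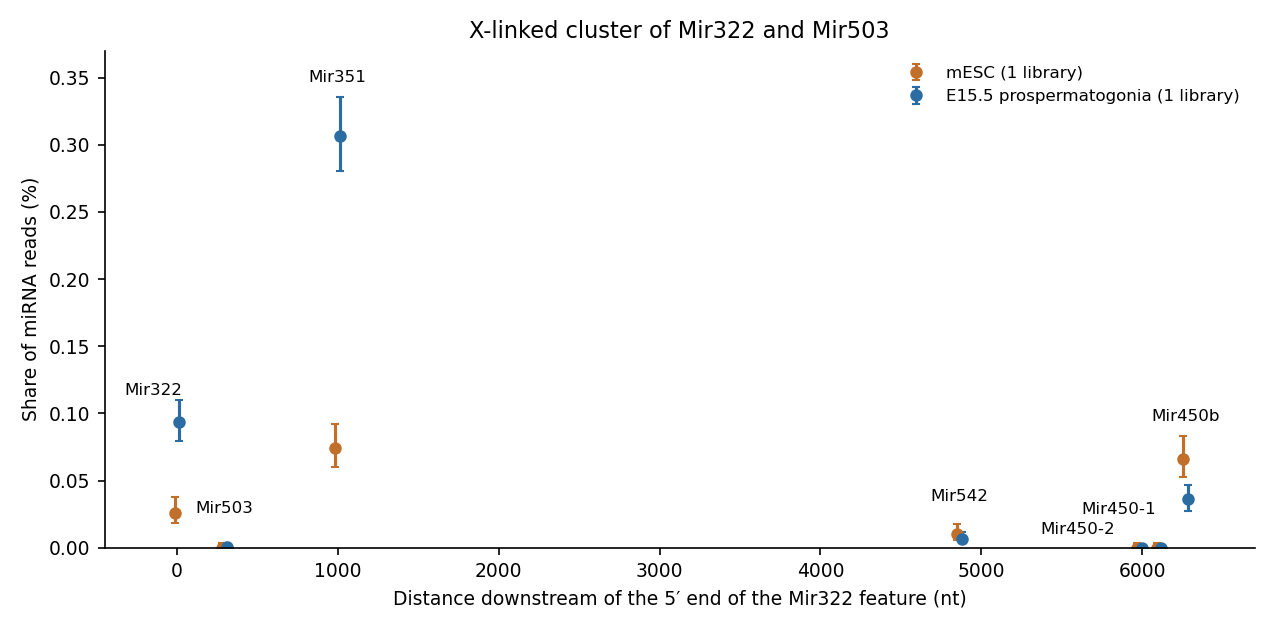
Share of all miRNA reads, in percent, of each hairpin of the X-linked cluster against its distance in nt downstream of the 5′ end of Mir322, in the mESC and the E15.5 prospermatogonia library, drawn slightly apart along the axis, with 95% Wilson intervals for counting error. Mir351 and Mir322 are higher in prospermatogonia (0.307% and 0.0934%) than in mESCs (0.0742% and 0.0263%), and Mir450b is lower (0.0361% against 0.0661%).

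Other miRNA families with known cell-cycle targets were compared by counts, read against the 80.8% of all features that were at least 2-fold lower in prospermatogonia as deposited and the 9.85% that were higher. Of 10 features of the let-7 family, whose targets include cyclin and Ras mRNAs, and which are here those named Mirlet7 together with Mir98, 5 reached 10 RPM and 5 of these were lower, with a median log2 ratio of -2.18. The Mirlet7e locus is not among these 10. A feature under a clone name, AC165361.1 (chr17:17830343-17830459), spans it on the opposite strand, had 20 reads in mESCs and 686 in prospermatogonia and was higher, with a log2 ratio of 2.40. Whether its reads are let-7e was not tested. The 10 features, Mir98 with its 15 and 11 reads included, held 0.247% of the miRNA reads in mESCs and 0.175% in prospermatogonia. With the 2 clone-named features that lie at let-7 loci on the opposite strand, a choice made on seeing the data, the shares were 0.265% and 0.617%, so that the direction turns with AC165361.1.

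The Mir34 and Mir449 loci were planned as a single list of 6, of which 4 reached 10 RPM. Of these 3 were lower and 0 higher, with a median of -3.50. The split that follows was added later. Of 3 Mir34 loci, which are known targets of p53, 3 reached 10 RPM and 3 were lower, and they held 0.338% and 0.0638% of the miRNA reads. Of 3 loci of the related Mir449, 1 reached this level and was neither lower nor higher, and they held 0.00634% and 0.0148%. Of 6 features of the Mir17 cluster, which favours proliferation, 5 reached 10 RPM and 4 were lower, with a median of -2.48. This cluster held 5.45% of the miRNA reads in mESCs and 19.6% in prospermatogonia, which rests on Mir92-1 with 5244 and 29587 reads. A mature strand of Mir92-1 also lies at another locus, so that its entry carries the limit given above for Mir16-1 and Mir16-2. Without Mir92-1 the other 5 features held 0.702% and 0.551%. Scaled to the miRNA reads, where 39.9% of all features were lower and 20.2% higher, 1 feature of the let-7 family was lower and 0 higher. On that scale 2 Mir34 loci were lower and 0 higher, Mir449c was higher, and in the Mir17 cluster 1 feature was lower and 1, Mir92-1, was higher. The counts of these lists are small and are not a result about them.

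The non-member features nearest to Mir15b in both libraries, by the distance in log2(RPM + 1), were Mir29a (0.136), Mir410 (0.472) and Mir96 (0.542). With only 2 libraries, such nearness says little beyond a like level in each.

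Markers of other cells also differed between the libraries. Of 6 listed mesenchymal features 4 had more than 3 reads in mESCs and 2 in prospermatogonia, holding 3.31% and 0.482% of the miRNA reads. Of these, Mir21 had 2215 and 486 reads and Mir143 1393 and 260, while Mir199a-1 and Mir199a-2 were at 0 in both. Mir199a-1 and Mir199a-2 are copies by name, so that their 0 reads carry the limit given above for Mir16-1 and Mir16-2. Of 5 blood features 2 in each library had more than 3 reads (0.394% and 0.0837%), with Mir144 and Mir223 at 0 in both, and the endothelial Mir126 had 255 and 40 reads. Of 3 features of the gonadal soma 2 and 3 had more than 3 reads (0.262% and 0.399%), and their sum rests mainly on Mir140, with 280 reads in mESCs and 558 in prospermatogonia. Mir202 had 0 reads in mESCs and 57 in prospermatogonia, and Mir455 had 9 and 4. Mesenchymal, blood and endothelial features thus held a smaller share in prospermatogonia, and those of the gonadal soma a larger one in sum, through Mir140 and Mir202 but not Mir455. The part of these cells in the family's levels was not tested.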

How the data were processed

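smRNA-seq libraries of mESCs and of E15.5 male germ cells (1 each) were analysed. The labels name Trim Galore 0.4.1, Bowtie and GRCm38, and the methods name piPipes and mm9. The positions of 1300 of 1638 features, and of 7 of 8 members, were those of GENCODE vM21 miRNA genes on GRCm38. The authors deposited log2 values, whose unit, strand rule and treatment of reads with several matches are not given in the sources used here. They were read as log2 RPM, the unit stated for the RNA-seq data.

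Reads were recovered by dividing each linear value by that of a single read, and 100% of the values above the entry for no read came out whole within 0.05 reads. That entry (1353 and 1321 of 1638 features) equals 0.9 reads and was set to 0. A single read was worth 2.22 RPM in mESCs and 0.348 RPM in germ cells. Ratios used a pseudocount of 1 RPM and features that reach 10 RPM in either library. With 1 library per group no test across conditions was run. Wilson intervals of reads (for ratios, of the reads of one library among those of both) and Woolf intervals of odds ratios cover counting error only. All members are named. The comparison lists and neighbours were fixed by name, and the 3 features nearest to the member with the most reads were found by Euclidean distance. The wider let-7 list and the splits of the Mir34 and Mir17 lists were added later. Members, lists and alternatives were chosen with earlier results of these data known. Mir450a-1 and Mir450a-2 are Mir450-1 and Mir450-2 in the table. RefSeq sequences of GRCm38.p6 were used, and the set at hand held a hairpin for 7 of 8 members and none for Mir15a. Read recovery and intervals were tested on simulated reads. Alternatives were other pseudocounts, scalings, filters and thresholds. Tables were handled with pandas 2.3.3 and numpy 2.4.6 in Python 3.11.15, statistics with scipy 1.17.1, and plots with matplotlib 3.10.9.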

Additional observations from a re-analysis of the deposited data

How the results depend on the processing

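Each condition had 1 library, which leaves none once a replicate is dropped. No paired analysis was possible because there is 1 library per group and no test was run. No clone-named feature lies at a member's position, so that adding such features gave no other value. The family's share of the miRNA reads and the shares of the 4 clusters stayed within their counting intervals under each setting run for them (20 of 20). Features without a read were entered as deposited, only named features were kept (family share), or the Mir16 loci were left out (cluster shares). Such settings change few or none of the family's reads, so that this count says little about robustness. Whether the entries lack reads of the strand that the Mir16 loci share was not tested by them.

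The ratios depend on the scaling, which moves all features alike. The summed log2 ratio of the family, -2.33 as deposited, was -0.15 with scaling to all miRNA reads or to the sum without the 10 highest features, and it changed sign to 0.036 with the median ratio. Without Mir322, which was chosen as a setting after seeing the data, it was -2.98. The median of the members, -2.52, was -0.41, -0.22 and -0.41 with scaling to all miRNA reads, to the median ratio and to the sum without the 10 highest. In the same order 1, 0 and 1 members were at least 2-fold lower, against 4 as deposited, and 1, 1 and 1 were higher, against 0; the third of these settings was added after the data were seen. The one higher was Mir322, at 1.81, 2.004 and 1.81. Of all features, 80.8% were lower and 9.85% higher as deposited, and 39.9% and 20.2% with scaling to all miRNA reads. No such share is given here for the other scalings, so that their counts are not read as a result about the members. Pseudocounts of 0.1 and 5, a 4-fold threshold and other filters left the counts within 1.5-fold. With all features above 0 in either library, the count of lower members rose from 4 to 6 through Mir16-1 and Mir16-2. No share over all features is given here for these settings either, so that their counts are not read as a result about the members. Depth limits the comparison of Mir16-1, Mir16-2 and Mir503, with at most 4 reads each.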
